A study of Mus musculus with 26 samples.

Results

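The DNA methylation writers and erasers are described here as 9 genes of 55291 in the count tables, namely Dnmt1, Dnmt3a, Dnmt3b, Dnmt3l, Uhrf1, Tet1, Tet2, Tet3 and Tdg. They were chosen by name, and all 9 passed the filter on low counts in both experiments. RNA was sequenced from 26 libraries of mouse embryonic stem cells (ESCs) and of neural progenitor cells (NPCs) made from them over 2 days in N2B27 medium on laminin. All lines derive from E14TG2a, a male mouse ESC line, and as ESCs all were kept in N2B27 with 3% serum, leukemia inhibitory factor, 3 µM CHIR99021 and 1 µM PD0325901, inhibitors of GSK3 and MEK. The N2B27 of the NPCs also held 3% serum, and neither inhibitor is listed for it. In the first experiment (2 libraries in each of 4 groups), CTCF was replaced. Both alleles of the endogenous gene carry an mAID-eGFP tag, OsTIR1 is expressed from 1 Rosa26 allele, and WT or ΔZF1 CTCF, tagged with Flag and Halo, is under doxycycline control at Tigre. The ΔZF1 form carries a deletion in the first zinc finger of CTCF (ZF1), and each rescue line is 1 clone that also carries an mCherry reporter at Mnx1. The 4 groups (NPC-ΔZF1 and ESC-ΔZF1, with NPC-WT and ESC-WT as controls) were all treated for 24 h with 1 µM 5-Ph-IAA, which degrades the tagged endogenous CTCF, and with 1 µg/ml doxycycline, so that the controls of this experiment are rescued and treated cells too. In the second experiment (3 libraries in each of 6 groups), parental cells (ESC WT and NPC WT, untreated) were compared with lines in which an eGFP cassette ending in an SV40 polyadenylation signal was inserted into both alleles of Podxl (Podxl pA) or Grb10 (Grb10 pA), after the first coding exon, to truncate the RNA.

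DNA methylation in mammals is written onto the cytosine of CpG by 2 kinds of enzyme. Dnmt1 copies the mark onto the new strand after replication, and Uhrf1 brings it to hemimethylated CpG. Dnmt3a and Dnmt3b methylate DNA anew, helped by Dnmt3l, which has no catalytic activity of its own. The Tet enzymes oxidise 5-methylcytosine, and Tdg, a glycosylase of base excision repair, cuts out the most oxidised forms. ESCs held in the inhibitors used here are known for low methylation and for high Tet1 and Tet2, and the exit from this state is known for a wave of new methylation.

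The 9 genes lie on 7 chromosomes of mm10. Their coordinates in GENCODE M21 are chr9:20907209-20959888 for Dnmt1, chr12:3806007-3914443 for Dnmt3a, chr2:153649450-153687730 for Dnmt3b, chr10:78041947-78063622 for Dnmt3l and chr17:56303321-56323486 for Uhrf1. The erasers lie at chr10:62804570-62908996 (Tet1), chr3:133463679-133545139 (Tet2), chr6:83362373-83459084 (Tet3) and chr10:82629828-82650799 (Tdg). All 9 are annotated as protein coding, and counts are summed over the exons of each gene.

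The promoters of Dnmt3b and Dnmt3l, which rose in each line, and of Tet1 and Tet2, whose level was lower in NPCs of each line, are shown, because CpG is the substrate of these enzymes and the genes differ widely in how much of it they carry. Each line gives the 250 bases before a RefSeq start on GRCm38.p6 (mm10), 5′ to 3′ on the strand of the gene, with CpG in capitals. RefSeq lists 16 starts for the 9 genes, and the first listed start of Dnmt3l is shown. They lie at chr2:153649199-153649448 (Dnmt3b, plus strand), chr10:78042037-78042286 (Dnmt3l, plus strand), chr10:62887325-62887574 (Tet1, minus strand) and chr3:133544391-133544640 (Tet2, minus strand).
Dnmt3b: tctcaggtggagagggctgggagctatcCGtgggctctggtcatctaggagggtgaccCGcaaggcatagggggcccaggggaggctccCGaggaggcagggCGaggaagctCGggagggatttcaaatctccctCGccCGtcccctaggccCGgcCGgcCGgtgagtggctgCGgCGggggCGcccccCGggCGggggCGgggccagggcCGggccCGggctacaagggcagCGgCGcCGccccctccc
Dnmt3l: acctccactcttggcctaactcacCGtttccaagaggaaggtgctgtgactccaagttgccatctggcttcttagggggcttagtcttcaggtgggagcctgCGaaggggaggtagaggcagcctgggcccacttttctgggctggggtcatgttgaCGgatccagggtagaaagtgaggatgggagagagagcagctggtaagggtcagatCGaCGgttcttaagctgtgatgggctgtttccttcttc
Tet1: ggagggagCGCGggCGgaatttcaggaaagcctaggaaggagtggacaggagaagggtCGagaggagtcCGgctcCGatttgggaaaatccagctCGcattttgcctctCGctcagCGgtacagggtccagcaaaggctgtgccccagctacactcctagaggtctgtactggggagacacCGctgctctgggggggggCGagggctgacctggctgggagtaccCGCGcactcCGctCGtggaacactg
Tet2: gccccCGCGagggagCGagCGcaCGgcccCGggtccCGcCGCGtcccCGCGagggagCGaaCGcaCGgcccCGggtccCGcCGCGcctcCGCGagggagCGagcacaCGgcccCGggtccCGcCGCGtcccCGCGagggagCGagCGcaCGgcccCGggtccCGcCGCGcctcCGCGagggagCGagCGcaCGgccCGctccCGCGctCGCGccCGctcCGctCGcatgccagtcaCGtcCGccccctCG

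CpG was searched as the letters CG, which read the same on both strands. The Dnmt3b window holds 21 CpG, a number reached by 16.3% of the windows of 32851 RefSeq starts, and the Tet1 window holds 15 (27.3%). Tet2 stands near the top with 51 CpG, a number that 0.067% of the windows reach, whereas Dnmt3l holds 5 before its first start and 4 and 3 before the other two, against a median of 6. The windows before the 3 starts of Dnmt3a, not shown, hold 38, 40 and 15. The genes that rose in NPCs therefore had both CpG-rich (Dnmt3b) and CpG-poor (Dnmt3l) starts, and the methylation of these windows was not measured in the counts.

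Levels are given as CPM, the usual unit of counts scaled to library size, with library sizes that were adjusted with the TMM method of edgeR. The reads that fell on genes came to between 6425179 and 28730435 a library in the rescue lines and between 1907505 and 8845087 in the parental and truncation lines, so that the second experiment is shallower but has 1 more library per group. A gene was called up- or down-regulated at an adjusted p-value of at most 0.05 from edgeR's quasi-likelihood test (Benjamini-Hochberg over all genes tested) and a log2 fold change whose size reached 0.5. Libraries of 3 groups stood apart from their replicates. The chi-square of counts per gene between replicates was 63.1 in NPC-WT and reached 27.6 in ESC WT (replicate 1 against 2) and 22.4 in ESC Grb10 pA (replicate 1 against 2), against 1.69 to 6.37 between the replicates of the other groups. Naive and neural markers moved as the labels say, since 9 or 10 of 10 genes of naive pluripotency were down-regulated and 6 or 7 of the 7 or 8 neural genes tested were up-regulated in NPCs of each line. Endoderm genes were also up-regulated in NPCs of each line, where their list summed to more than the neural list. The endoderm list was at 535 to 698 CPM in NPC WT, against 144 to 152 CPM for the neural list. In NPC-WT these were 195 to 227 and 123 to 174 CPM, and in NPC-ΔZF1 1884 to 1968 and 133 to 136 CPM. The targeted RNAs fell as labelled, with Podxl at 20.8 to 24.3 CPM in NPC Podxl pA against 232 to 259 in NPC WT, and Grb10 at 52.2 to 59.4 CPM in NPC Grb10 pA against 769 to 814. In ESC Podxl pA, Podxl was at 3.01, 3.44 and 12.9 CPM in replicates 1, 2 and 3, against 26.4 to 34.9 in ESC WT. Ctcf counts do not tell WT from ΔZF1 CTCF, but they were higher in the ΔZF1 lines, with 785 to 860 CPM against 449 to 577 in the WT lines.

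**Figure D1:**
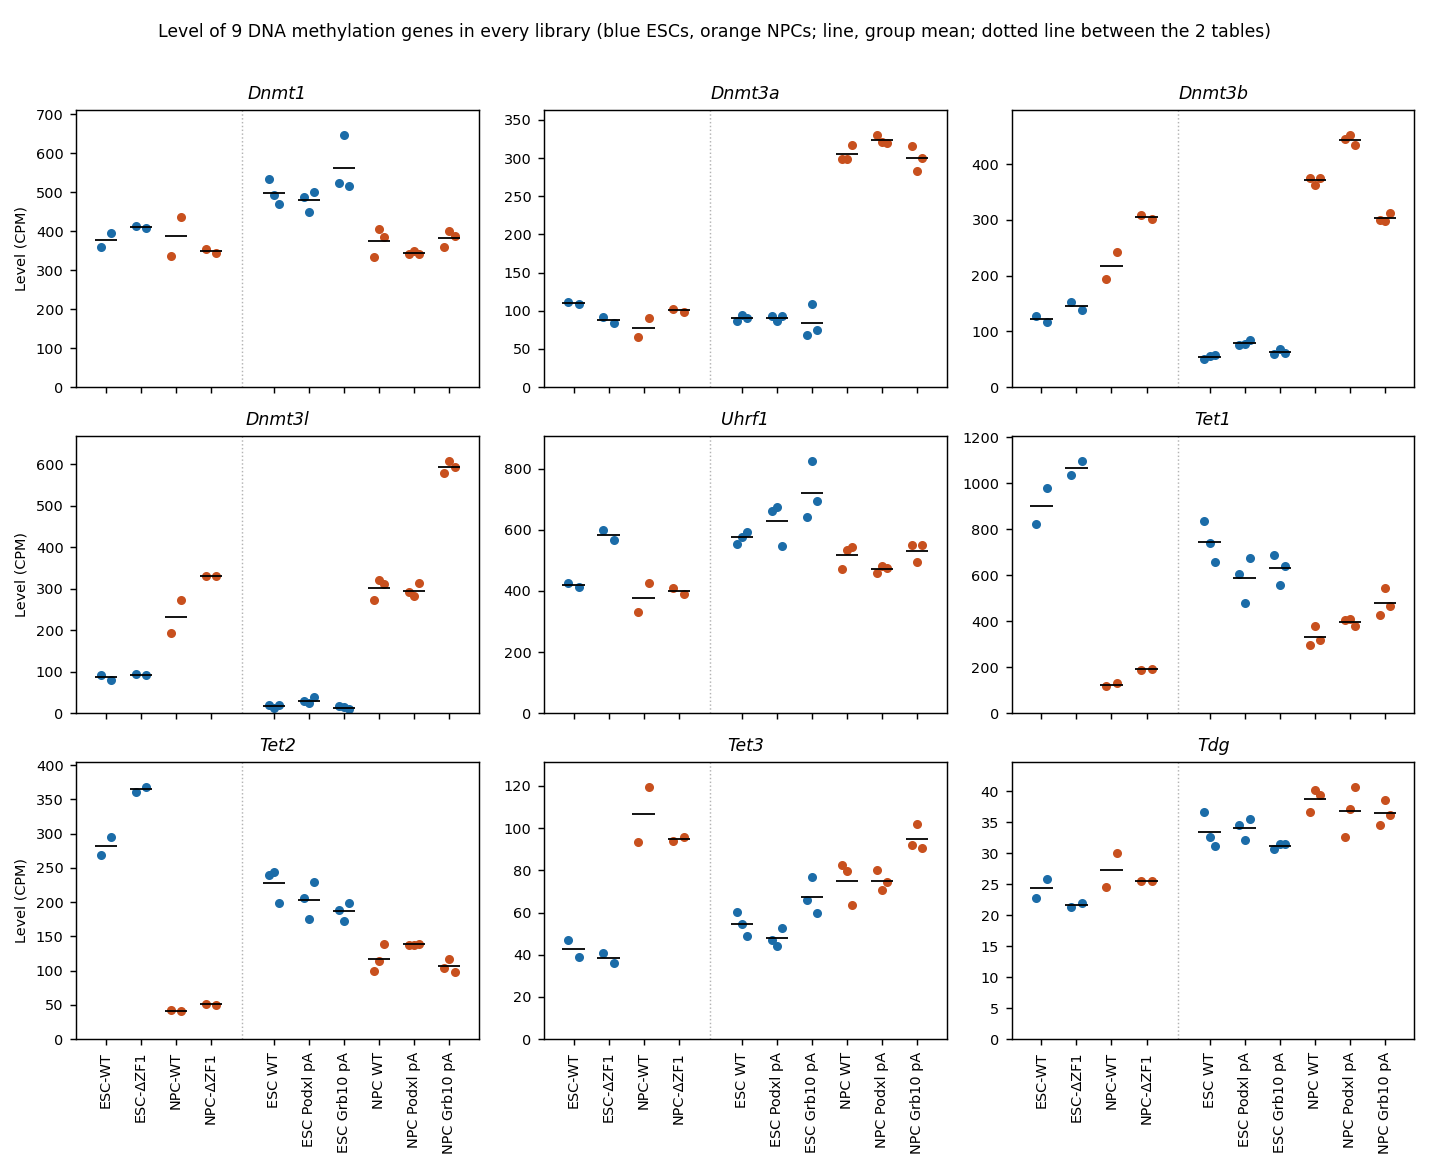
Level of each of the 9 genes (CPM, linear axis from 0) in all 26 libraries, with a point for each library, a black line for the group mean, ESCs in blue and NPCs in orange. The rescue lines are left of the dotted line and the parental and truncation lines right of it; Dnmt3l, Dnmt3b, Tet1, Tet2 and Tet3 separate ESCs from NPCs of the same line in each line, and so does Dnmt3a, which is lower in NPC-WT than in ESC-WT and higher in NPCs of the other lines.

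Differentiation of parental cells raised the de novo writers and lowered Tet1 and Tet2. Of the 9 genes, 3 were higher and 2 lower in NPC WT than in ESC WT by the test, where 32.8% of all genes tested were called in either direction. The change in Dnmt3l, the cofactor of the de novo enzymes, was the widest. It was at 18.3, 13.4 and 19.4 CPM in the ESC WT libraries and at 271.5, 320.4 and 310.4 CPM in the NPC WT libraries. Every NPC library lay far above every ESC library, an 18.2-fold difference (log2 fold change 4.19 ± 0.14 SE, adjusted p = 1.20e-21), which ranked 176th in size among the 13268 genes tested. Dnmt3b went from 54.8 ± 3.51 to 371 ± 7.24 CPM (SD, n = 3), a log2 fold change of 2.77 ± 0.08 (SE, adjusted p = 1.39e-23). Dnmt3a went from 90.4 ± 3.42 to 304.9 ± 11.2 CPM (SD, n = 3), a log2 fold change of 1.75 ± 0.10 (SE, adjusted p = 8.98e-16). Among the 3 de novo genes, the order of the log2 fold changes was thus Dnmt3l, Dnmt3b and Dnmt3a, and their 95% intervals did not overlap.

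The Tet genes split in NPC WT. Tet1 was at 837, 742 and 657 CPM in ESC WT and at 296, 378 and 318 CPM in NPC WT. The groups did not overlap, with a log2 fold change of -1.17 ± 0.12 (SE, adjusted p = 2.49e-08). Tet2 went from 227 ± 24.8 to 117 ± 19.8 CPM (SD, n = 3), with a log2 fold change of -0.97 ± 0.11 (SE, adjusted p = 4.09e-09). Tet3, the form known from the oocyte and from neurons, went the other way, from 54.7 ± 5.74 to 75.2 ± 10.3 CPM (SD, n = 3). Its log2 fold change of 0.46 ± 0.11 (SE, adjusted p = 0.00107) passed the p-value cutoff but not the fold cutoff. The maintenance pair moved little. Dnmt1 had a log2 fold change of -0.41 ± 0.09 (SE, adjusted p = 0.000185), under the fold cutoff, and Uhrf1 one of -0.15 ± 0.09 (SE, adjusted p = 0.151).

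Podxl pA and Grb10 pA cells went through the same differentiation with the same 3 de novo genes up-regulated. In Podxl pA, 4 genes were up-regulated and 2 down-regulated against 31.8% of all genes, and in Grb10 pA 3 and 2 against 34.5%. Dnmt3l had a log2 fold change of 3.38 ± 0.13 in Podxl pA (SE, adjusted p = 6.78e-20). In Grb10 pA it was 5.47 ± 0.14 (SE, adjusted p = 3.92e-24), from 16.0, 14.2 and 9.95 CPM to 579, 608 and 594 CPM, a 44.3-fold difference. Dnmt3b rose in both lines, by log2 fold changes of 2.49 ± 0.08 and 2.29 ± 0.08 (SE), and so did Dnmt3a, by 1.83 ± 0.10 and 1.85 ± 0.10. Tet2 fell by 0.55 and 0.82 on the log2 scale (SE 0.10 and 0.11). Tet1 was down-regulated in Podxl pA (log2 fold change -0.56 ± 0.12 SE, adjusted p = 0.000514) and had a log2 fold change of -0.40 ± 0.12 (SE, adjusted p = 0.00769) in Grb10 pA, under the fold cutoff. The Tet1 and Tet2 calls in Podxl pA were lost without replicate 3 of ESC Podxl pA, with log2 fold changes of -0.43 and -0.45. Tet3 passed both cutoffs in Podxl pA (0.67 ± 0.11 SE) and Dnmt1 in Grb10 pA (-0.56 ± 0.09 SE), whereas Tet3 in Grb10 pA (0.50 ± 0.11 SE) lay just under the fold cutoff. Both Grb10 pA values lie near the cutoff, since Tet3 passed under 8 of 15 alternatives (0.52 with DESeq2), and the call of Dnmt1 was lost under 3 of 15, with no filter and without ESC Grb10 pA replicate 2 or NPC Grb10 pA replicate 1 (-0.49, -0.43 and -0.49). Dnmt1 passed in Podxl pA without ESC Podxl pA replicate 2 (-0.53).

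The rescue lines gave another picture for Dnmt3a and a steeper one for the Tet genes. In NPC-WT relative to ESC-WT, 3 genes were up-regulated and 3 down-regulated, where 42% of all genes were called. Tet1 was at 824 and 978 CPM in ESC-WT and at 116 and 131 CPM in NPC-WT. Its log2 fold change was -2.87 ± 0.12 (SE, adjusted p = 4.63e-07), a 7.29-fold lower level. Tet2 went from 268 and 295 CPM to 42.9 and 40.4 CPM, a log2 fold change of -2.76 ± 0.11 (SE, adjusted p = 3.32e-07). Tet3 rose, from 46.9 and 38.7 CPM to 93.4 and 119.6 CPM, with a log2 fold change of 1.32 ± 0.15 (SE, adjusted p = 7.42e-05). Dnmt3l and Dnmt3b rose by log2 fold changes of 1.44 ± 0.16 and 0.83 ± 0.13 (SE, adjusted p = 5.05e-05 and 0.000486). Dnmt3a was instead lower, at 65.4 and 90.2 CPM in NPC-WT against 111 and 109 CPM in ESC-WT. This fall, a log2 fold change of -0.51 ± 0.15 (SE, adjusted p = 0.0160), was just past both cutoffs and was lost under 8 of 12 alternatives, among them the removal of NPC-WT replicate 1, of ESC-WT replicate 1 or of ESC-WT replicate 2 (log2 fold changes of -0.28, -0.50 and -0.52). It was -0.74 without NPC-WT replicate 2.

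In the ΔZF1 line the same 2 Tet genes fell and the same 3 genes rose. NPC-ΔZF1 relative to ESC-ΔZF1 had 3 genes up-regulated and 3 down-regulated against 37.4% of all genes. Dnmt3l (log2 fold change 1.84 ± 0.16), Dnmt3b (1.07 ± 0.13) and Tet3 (1.31 ± 0.15) were higher, and Tet1 (-2.49 ± 0.12) and Tet2 (-2.84 ± 0.11) lower (all SE). Uhrf1 was down-regulated there as well, by 0.55 ± 0.13 on the log2 scale (SE, adjusted p = 0.00547), from 601 and 567 to 409.9 and 389.7 CPM. Without NPC-ΔZF1 replicate 2 this call was lost (adjusted p = 0.0629). Dnmt3a had a log2 fold change of 0.20 ± 0.14 (SE, adjusted p = 0.288) with a 95% interval from -0.12 to 0.53. The plot of these log2 fold changes shows the lines side by side.

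**Figure D2:**
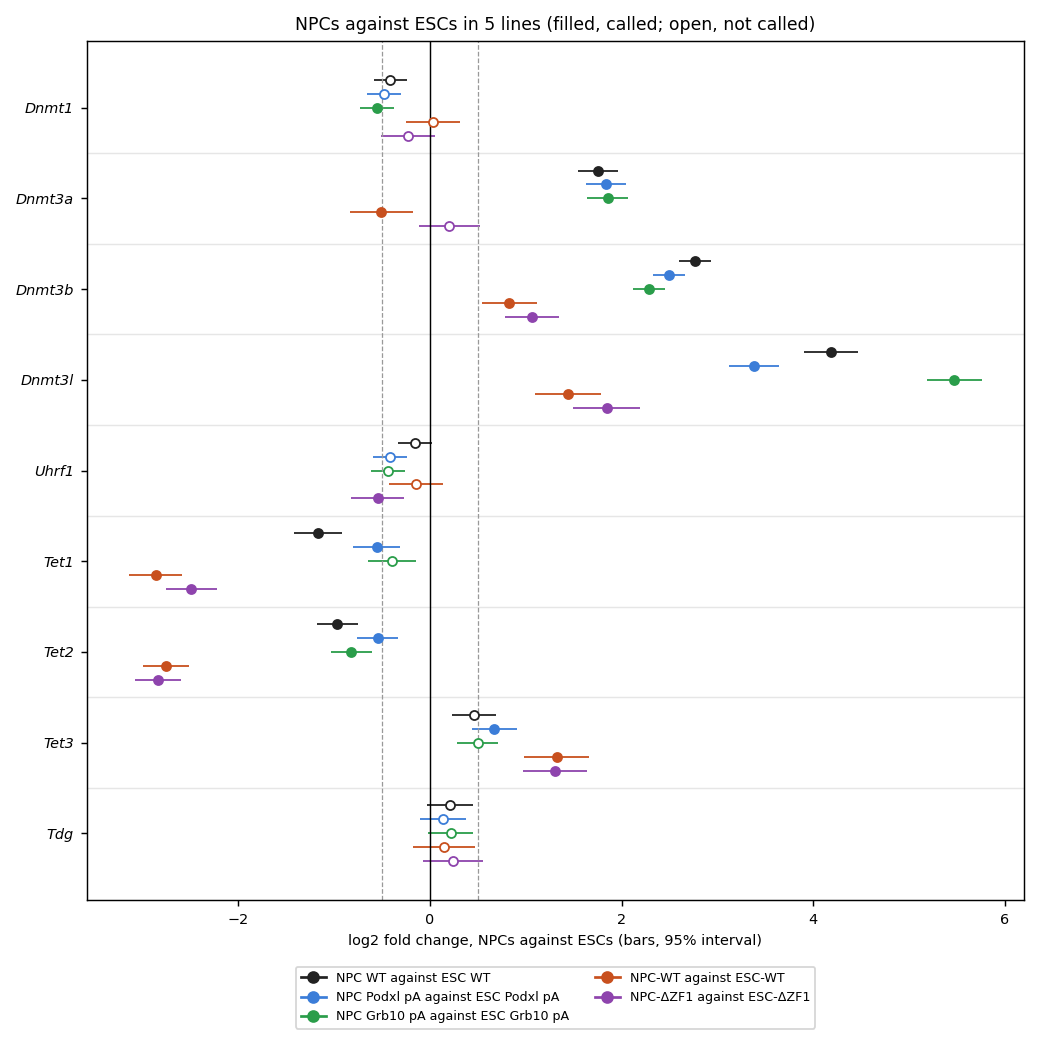
log2 fold change of each gene in NPCs relative to ESCs of the same line, with its 95% interval from edgeR, for 5 lines (colours); filled points passed both cutoffs, open points did not, and dashed lines mark changes of 0.5 up and down. Dnmt3a lies between 1.75 and 1.85 in the 3 untreated lines and at -0.51 and 0.20 in the rescue lines, while Tet1 and Tet2 lie lowest in the rescue lines.

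The experiments were counted in separate tables, with other clones, treatment and depth, and were not tested against each other. Set side by side, the ESCs already differed in Dnmt3l, with 79.9 to 93.4 CPM in the rescue ESCs and 9.95 to 37.6 CPM in the parental and truncation ESCs. Dnmt3b was at 117 to 153 CPM in the rescue ESCs and at 51.2 to 85.0 CPM in the other ESCs. Dnmt3a was alike in ESCs, with 83.8 to 111 CPM and 68.8 to 109 CPM, and apart in NPCs, with 65.4 to 103 CPM in the rescue NPCs and 283 to 331 CPM in the others. Genes of the formative epiblast, the state through which ESCs pass on leaving naive pluripotency, are given beside Dnmt3a. Of the 8 genes in that list 6 were up-regulated and 1 down-regulated in NPC WT (median log2 fold change 3.78, against -0.009 over all genes), and 5 were up-regulated and 2 down-regulated in NPC-WT (median 1.33, against 0.011), where Dnmt3a was lower. In NPC-ΔZF1 relative to ESC-ΔZF1, 5 were up-regulated and 2 down-regulated as well (median 2.64, against 0.019), and Dnmt3a was not called. The summed level of the list went another way than these medians in the rescue lines. It was 492 to 568 CPM in ESC WT and 628.5 to 639 CPM in NPC WT. In ESC-WT it was 522 to 562 CPM and in NPC-WT 143 to 181 CPM, and in ESC-ΔZF1 537 to 577 CPM and in NPC-ΔZF1 252 to 264 CPM. Of the 8 genes, only 2 are given singly here. Lef1, a transcription factor of Wnt signalling, was at 55.9 CPM on average in NPC WT and at 6.89 CPM in NPC-WT, and Otx2, a factor of the formative epiblast, at 29.4 and 7.53 CPM. The part of cell state, clone or treatment in these differences was not tested.

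Per kb of exon, the genes can be set against each other. Exon length was the union over all transcripts of a gene, so that unused exons lower the value. In ESC WT the order of the levels was Uhrf1 (135 CPM per kb), Dnmt1 (67.6), Tet1 (48.2), Tet2 (13.5), Dnmt3b (10.7), Tdg (6.22), Dnmt3l (5.70), Dnmt3a (5.43) and Tet3 (3.27). The library ranges of Tdg, Dnmt3l and Dnmt3a overlapped there, and those of the other neighbours did not. In NPC WT it was Uhrf1 (121), Dnmt3l (101), Dnmt3b (72.7), Dnmt1 (50.7), Tet1 (21.4), Dnmt3a (18.3), Tdg (7.21), Tet2 (6.94) and Tet3 (4.50), with only the ranges of Tdg and Tet2 overlapping. Dnmt3l thus stood above Dnmt1 in each NPC WT library and below it in each ESC WT library. In NPC Grb10 pA Dnmt3l was the highest of the 9, at 199 CPM per kb against 125 for Uhrf1.

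The makeup of each family shifted with differentiation. Dnmt3l made up 21.4% to 28.7% of the summed Dnmt3a, Dnmt3b and Dnmt3l level per kb in ESC WT and 49.9% to 54.7% in NPC WT, while the share of Dnmt3a fell from a range of 23.3% to 27.0% to one of 9.14% to 9.84% although its level rose. In NPC Grb10 pA the share of Dnmt3l was 71.4% to 73.0% and that of Dnmt3b 20.9% to 22.0%, against 36.2% to 40.3% for Dnmt3b in NPC WT. In the rescue lines Dnmt3l already made up 46.9% to 49.1% in ESCs and reached 60.8% to 63.3% in NPCs. Tet1 made up most of the Tet level per kb in ESCs of each line, with 70.3% to 76.2%. Tet3 rose from 4.98% to 5.12% in ESC WT to 11.7% to 16.5% in NPC WT, and from 2.79% to 3.90% in ESC-WT to 35.7% to 39.7% in NPC-WT. The summed Tet level per kb was 57.2 to 71.9 CPM in ESC WT and 30.0 to 35.96 CPM in NPC WT, and the summed level of the 3 de novo genes was 20.9 to 23.3 and 182 to 196.5 CPM.

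**Figure D3:**
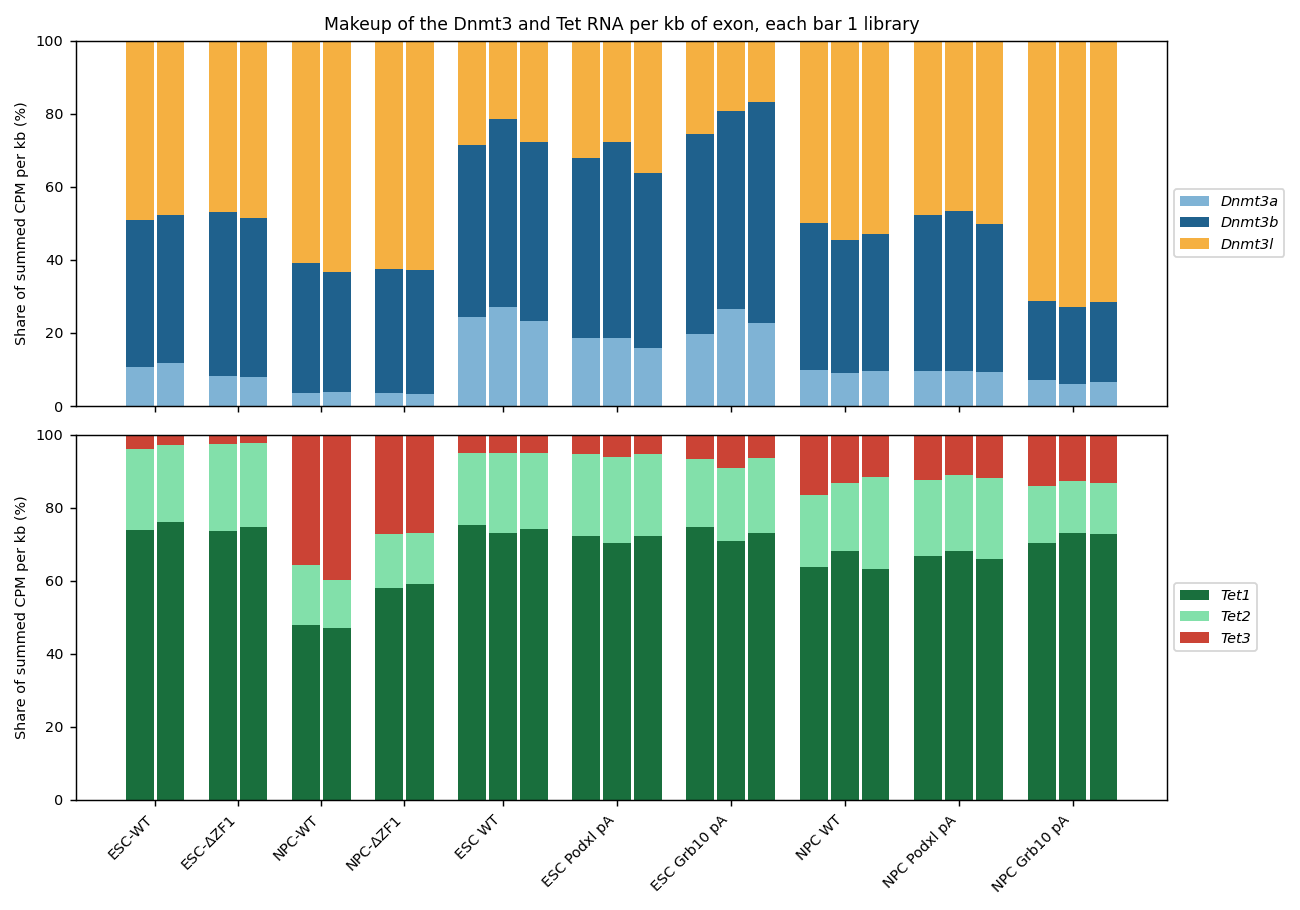
Share (%) of each gene in the summed CPM per kb of exon of Dnmt3a, Dnmt3b and Dnmt3l (top) and of Tet1, Tet2 and Tet3 (bottom), with a bar for each of the 26 libraries, grouped by cell type and line. The share of Dnmt3l is highest in NPC Grb10 pA (71.4% to 73.0%), and that of Tet3 in NPC-WT (35.7% to 39.7%).

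Whether the ΔZF1 deletion changed these genes was asked within each cell type. In ESC-ΔZF1 relative to ESC-WT, 0 of the 9 genes passed both cutoffs, where 3.59% of all genes were called. The nearest were Uhrf1 and Tet2. Uhrf1 was at 601 and 567 CPM in ESC-ΔZF1 against 425 and 412 CPM in ESC-WT, a log2 fold change of 0.48 ± 0.13 (SE, adjusted p = 0.0649). Tet2 was at 361 and 368 CPM against 268 and 295 CPM, a log2 fold change of 0.37 ± 0.10 (SE, adjusted p = 0.0706). The groups did not overlap for either gene. They did not overlap for Dnmt1 (log2 fold change 0.12) or Tdg (-0.18) either, so this does not set Uhrf1 and Tet2 apart. At an unadjusted p-value under 0.05, 2999 genes of all 16641 passed in this comparison, Dnmt3a, Uhrf1 and Tet2 among them. DESeq2 called 1 of the 9, Uhrf1 (log2 fold change 0.50, adjusted p = 0.0214).

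In NPC-ΔZF1 relative to NPC-WT, Dnmt3l and Tet1 were up-regulated, 2 of 9 genes, where 17.6% of all genes were called. Tet1 was at 186 and 194 CPM in NPC-ΔZF1 against 116 and 131 CPM in NPC-WT, with a log2 change of 0.62 ± 0.12 (SE, adjusted p = 0.00552). Dnmt3l was at 331 and 329.9 CPM against 194 and 272 CPM, a log2 fold change of 0.51 ± 0.15 (SE, adjusted p = 0.0386). With library sizes scaled without chromosome 11, this call was lost (log2 fold change 0.46, adjusted p = 0.0555 in edgeR). Dnmt3b, at 309 and 302.5 CPM against 193 and 242 CPM, missed the fold cutoff with a log2 fold change of 0.49 ± 0.13 (SE, adjusted p = 0.0212), and passed it with at least 10 counts required in every library (0.51, adjusted p = 0.0206). These values rest on the NPC-WT libraries, which stood apart from each other. Without NPC-WT replicate 1 the log2 fold change of Dnmt3l was 0.28, under the cutoff, that of Dnmt3b 0.34 and that of Tet1 0.53, and without NPC-WT replicate 2 they were 0.76, 0.65 and 0.69. With only these 4 libraries in the fit, neither Dnmt3l (adjusted p = 0.167) nor Tet1 (adjusted p = 0.0604) passed, and without either NPC-ΔZF1 library the calls were lost as well (adjusted p of 0.186 and 0.179 for Dnmt3l and 0.0533 and 0.0689 for Tet1).

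Endoderm genes moved with these rises in NPC-ΔZF1. All 11 of the 12 listed genes of primitive and visceral endoderm that could be tested were up-regulated (median log2 fold change 2.68, against -0.003 over all genes). Their summed level was 1884 to 1968 CPM in NPC-ΔZF1 and 195 to 227 CPM in NPC-WT. Formative genes moved too, with 4 of 8 up-regulated and a summed level of 252 to 264 CPM against 143 to 181 CPM. Of the 8 neural genes tested 4 were up-regulated and 1 down-regulated. The neural list summed to 133 to 136 CPM, within the 123 to 174 CPM of NPC-WT. In bulk RNA, more cells of a type and more RNA per cell cannot be told apart, and the part of these cells in the levels of Dnmt3l and Tet1 was not tested. The difference between the ΔZF1 effects in NPCs and ESCs was past the cutoffs for 0 of the 9 genes, where it was for 2.59% of all genes. It was largest for Dnmt3a, at 0.71 ± 0.21 on the log2 scale (SE, adjusted p = 0.113), whose log2 fold change was -0.33 in ESCs and 0.38 in NPCs. Of all 16641 genes, 3017 had an unadjusted p-value under 0.05 for this difference, and DESeq2 called 0 of the 9. Without NPC-WT replicate 2, Dnmt3a (0.92) and Dnmt3l (0.62) passed both cutoffs for it, and without NPC-WT replicate 1, Uhrf1 did (-0.58).

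In ESCs of the Podxl pA line Dnmt3b and Dnmt3l were higher than in ESC WT, where little else was called. These were 2 of 46 genes called in ESC Podxl pA relative to ESC WT, or 0.347% of the genes tested. Dnmt3b was at 76.1, 77.2 and 85.0 CPM in ESC Podxl pA and at 51.2, 55.0 and 58.3 CPM in ESC WT, a log2 fold change of 0.53 ± 0.09 (SE, adjusted p = 0.00276). Dnmt3l was at 28.9, 23.4 and 37.6 CPM against 18.3, 13.4 and 19.4 CPM, a log2 fold change of 0.78 ± 0.16 (SE, adjusted p = 0.0180). The groups did not overlap for either gene. The highest value of both genes was in replicate 3 of ESC Podxl pA, the library of lowest depth (1907505 counts) and the one with the most Podxl RNA left. The 9 endoderm genes tested had a median log2 fold change of 0.60 in this comparison, with 0 called, and the list summed to 13.4 to 38.6 CPM against 13.6 to 16.4 CPM in ESC WT. Its part in the levels of Dnmt3b and Dnmt3l was not tested. The truncation lines were also grown from single sorted cells, and the part of the clone was not tested either. Without replicate 3 of ESC Podxl pA neither call held (log2 fold changes of 0.49 for Dnmt3b and 0.65 for Dnmt3l, the latter with adjusted p = 0.0567). The call of Dnmt3l was also lost without ESC WT replicate 2 (adjusted p = 0.256) or ESC Podxl pA replicate 1 (adjusted p = 0.0940), and that of Dnmt3b without ESC WT replicate 1 (log2 fold change 0.49).

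As NPCs, the Podxl pA cells showed 0 of the 9 genes past both cutoffs, where 0.55% of all genes were called. Dnmt3l was at 291, 282 and 313 CPM in NPC Podxl pA and at 271.5, 320.4 and 310.4 CPM in NPC WT, overlapping groups with a log2 fold change of -0.03 and a 95% interval from -0.24 to 0.18. Dnmt3b was at 445, 453 and 434 CPM against 375, 363 and 375.5 CPM, groups that did not overlap, with a log2 fold change of 0.26 ± 0.07 (SE, adjusted p = 0.107). Of the endoderm genes, Gata4, Pdgfra and Dab2 were up-regulated, 3 of 9 tested, and the summed level of the list was 1140 to 1201 CPM against 535 to 698 CPM. At an unadjusted p-value under 0.05, 1347 genes passed in this comparison, and DESeq2 called 0 of the 9. The difference between the Podxl pA effects in NPCs and ESCs was past the cutoffs for 0 of the 9 genes and for 0.0452% of all genes, with 1364 genes at an unadjusted p-value under 0.05. For Dnmt3l it was -0.81 ± 0.19 on the log2 scale (SE, adjusted p = 0.0883), and DESeq2 called it (adjusted p = 0.00620).

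In ESCs of the Grb10 pA line the 9 genes lay under the cutoffs. There 0 were called in ESC Grb10 pA relative to ESC WT, where 9.01% of all genes were, 3808 genes had an unadjusted p-value under 0.05 and DESeq2 called 0 of the 9. Uhrf1 came nearest, at 643, 826 and 695 CPM against 554, 578 and 594 CPM, with a log2 fold change of 0.33 ± 0.09 (SE, adjusted p = 0.00901), under the fold cutoff. Dnmt3l was at 16.0, 14.2 and 9.95 CPM against 18.3, 13.4 and 19.4 CPM, a log2 fold change of -0.31 ± 0.18 (SE, adjusted p = 0.277).

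In NPCs of the Grb10 pA line Dnmt3l and Tet1 were up-regulated, 2 of 9 genes, where 16.5% of all genes were called. Dnmt3l was at 579, 608 and 594 CPM in NPC Grb10 pA against 271.5, 320.4 and 310.4 CPM in NPC WT. Its level was 1.97-fold higher, a log2 fold change of 0.98 ± 0.10 (SE, adjusted p = 1.78e-08), and this call held under all 15 alternatives, between 0.91 and 1.03. Tet1 was at 425, 546 and 466 CPM against 296, 378 and 318 CPM, a log2 fold change of 0.53 ± 0.12 (SE, adjusted p = 0.00197), and fell under the fold cutoff without NPC WT replicate 1, NPC WT replicate 3 or NPC Grb10 pA replicate 2 (0.46, 0.50 and 0.43). Dnmt3b went the other way, at 300.0, 298 and 313 CPM against 375, 363 and 375.5 CPM, with a log2 fold change of -0.29 ± 0.07 (SE, adjusted p = 0.00319) that was under the fold cutoff. Dnmt3a (-0.02) and Dnmt1 (0.03) were close to NPC WT, with 95% intervals from -0.22 to 0.17 and from -0.15 to 0.21.

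The Grb10 pA effect in NPCs differed from that in ESCs for Dnmt3l by 1.28 ± 0.21 on the log2 scale (SE, adjusted p = 0.000175) and for Tet1 by 0.77 ± 0.17 (SE, adjusted p = 0.00682), where 5.82% of all genes passed. That of Tet1 was lost without ESC Grb10 pA replicate 2 (adjusted p = 0.0588). Dnmt3l shares 67 bases of exon with Aire, a gene on the opposite strand, and reads there could not be assigned by strand. Aire was at 9.97 to 12.4 CPM in NPC Grb10 pA and 3.06 to 4.53 CPM in NPC WT, far under the levels of Dnmt3l. Markers moved in these cells as well. Of the 7 neural genes tested 5 were down-regulated, Sox1 among them, and the list summed to 61.7 to 71.5 CPM against 144 to 152 CPM in NPC WT. Endoderm genes were down-regulated in 3 of 9 cases tested (420 to 552 against 535 to 698 CPM), where in NPC-ΔZF1 they were up-regulated. Of 10 genes of naive pluripotency 4 were up-regulated and 2 down-regulated. The mesoderm list summed to 71.8 to 88.7 CPM against 38.5 to 45.2 CPM, with Eomes and Hand1 up-regulated of 3 genes tested. Among formative genes Otx2 was up-regulated and Lef1 down-regulated, of 8 tested. The part of cell makeup in the levels of Dnmt3l and Tet1 was not tested. The Podxl pA and Grb10 pA comparisons use the same WT libraries.

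**Figure D4:**
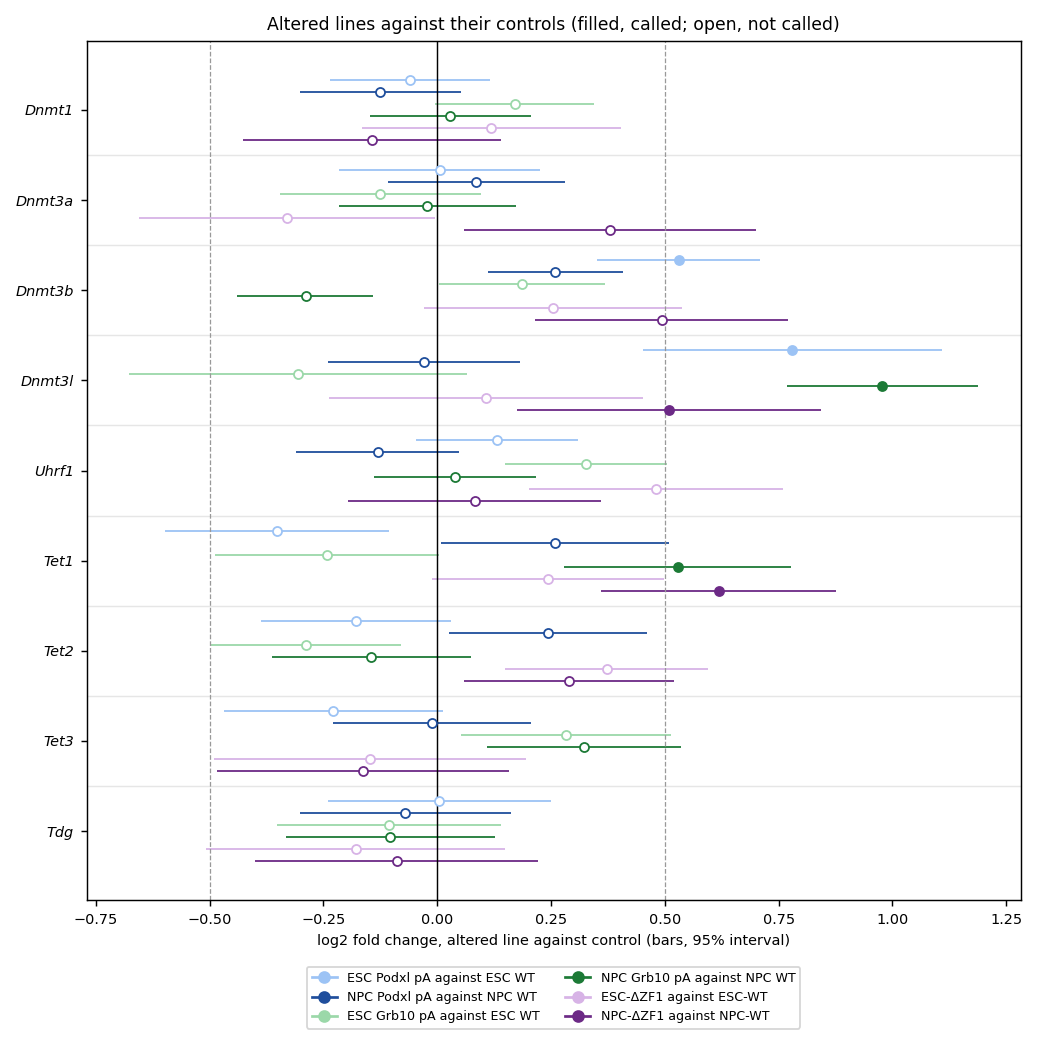
log2 fold change of each gene in the Podxl pA, Grb10 pA and ΔZF1 lines relative to their controls, with its 95% interval from edgeR, in ESCs (light) and NPCs (dark); filled points passed both cutoffs and dashed lines mark changes of 0.5 up and down. The filled points are Dnmt3b and Dnmt3l in ESC Podxl pA, and Dnmt3l and Tet1 in NPC Grb10 pA and NPC-ΔZF1.

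Tdg, the glycosylase, passed both cutoffs in none of the 14 comparisons. Its level was 21.2 to 30.0 CPM in the rescue lines and 30.7 to 40.7 CPM in the others. Its value is uncertain, because the pseudogene Tdg-ps2 had 17.9 to 24.2 and 19.1 to 37.5 CPM in the same libraries, and reads of near-identical copies can be split between them or lost. With both summed, Tdg did not pass both cutoffs in any of the 14 comparisons. Tdg also shares 367 bases of exon with Glt8d2 on the opposite strand, which was at 0 to 2.59 CPM, and Tet2 shares 43 with the antisense gene Gm42567. For the other members, the antisense gene Dnmt3aos, the paralog Dnmt3c and the pseudogene Dnmt3l-ps1 had at most 0.674 CPM each.

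Dnmt1 was lower in each NPC library of those 3 lines (334 to 404 CPM) than in each ESC library (449 to 647 CPM), with log2 fold changes of -0.41, -0.48 and -0.56 in WT, Podxl pA and Grb10 pA. Uhrf1 had log2 fold changes of -0.15, -0.42 and -0.44 there and passed both cutoffs in none of the 3, but it did in Grb10 pA without ESC Grb10 pA replicate 1 (-0.52). In the rescue lines Dnmt1 was at 360 to 414 CPM in ESCs and 336 to 436 CPM in NPCs, overlapping ranges. Of 15 replication genes, which mark cycling cells as Uhrf1 and Dnmt1 do, 0 were called in NPC WT, 1 was up-regulated and 5 down-regulated in NPC-WT, and 4 were up-regulated and 1 down-regulated in NPC Grb10 pA relative to ESCs of the same line. Of all genes tested, 32.8% were called in NPC WT, 42% in NPC-WT and 34.5% in NPC Grb10 pA. Mki67, a proliferation marker, was higher (log2 fold change 0.87) and Pcna, the replication clamp, lower (-0.65) in NPC-WT.

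Of 17 methylation cofactors, 4 rose and 2 fell from ESC WT to NPC WT, where 32.8% of all genes tested were called. Prdm14, which represses the de novo writers in naive ESCs, had a log2 fold change of -4.75 ± 0.27 (SE), from 38.7 to 1.58 CPM on average. Zfp57, which keeps methylation at imprinted genes, was lower (-0.61 ± 0.09 SE), and Uhrf2, a relative of Uhrf1, and Cdca7l were higher (0.86 ± 0.12 and 1.09 ± 0.13 SE). In NPC-WT 1 cofactor was up-regulated and 8 down-regulated, where 42% of all genes were called. Prdm14 was at -5.71 ± 0.38, Zfp57 at -2.47 ± 0.13 and Uhrf2 at 0.80 ± 0.12 (log2 fold change, SE). Prdm14 was thus down-regulated and Uhrf2 up-regulated in both.

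Of 8 methyl-CpG readers, 0 were up-regulated and 4 down-regulated in NPC WT, Zbtb38 (-1.24 ± 0.12 SE) among them, where 32.8% of all genes were called. In NPC-WT 3 were up-regulated and 2 down-regulated, where 42% of all genes were called. Zbtb4 (1.38 ± 0.21 SE) and Mbd2 (1.37 ± 0.17 SE) were highest there, and Zbtb38 (-0.60 ± 0.16 SE) and Mbd4 (-0.53 ± 0.12 SE) were lower. In NPC-ΔZF1 relative to NPC-WT, Zbtb4 (-1.26 ± 0.18 SE) and Mbd1 (-0.53 ± 0.13 SE) were down-regulated, 2 of 8, where 17.6% of all genes were called.

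Among demethylation partners, which hold repair enzymes downstream of Tdg, deaminases and Gadd45 proteins, 4 were up-regulated and 7 down-regulated of 17 tested in NPC WT. Of all genes, 32.8% were called in that comparison. Gadd45a (1.33 ± 0.15 SE) and Apobec1 (1.09 ± 0.12 SE) were among the rises there, and Gadd45b (-1.30 ± 0.18 SE) and Smug1, a uracil glycosylase (-1.25 ± 0.16 SE), among the falls. In NPC-WT 4 of 19 were up-regulated and 5 down-regulated, where 42% of all genes were called. The rises were led by Gadd45g (4.08 ± 0.38 SE) and Gadd45b (2.10 ± 0.17 SE), and the falls by Apobec3 (-2.07 ± 0.13 SE) and Parp1 (-1.10 ± 0.14 SE). Gadd45b had opposite signs in NPC WT and NPC-WT, as Dnmt3a did. In NPC-ΔZF1 relative to NPC-WT, Apobec2 (0.86 ± 0.20 SE) and Gadd45a (0.75 ± 0.13 SE) were up-regulated and Gadd45g (-1.42 ± 0.27 SE) and Gadd45b (-1.26 ± 0.15 SE) down-regulated. With Ogt, Cxxc5 and Lig3 these made 4 rises and 3 falls of 19, where 17.6% of all genes were called. In NPC Grb10 pA relative to NPC WT, Gadd45b was higher (1.65 ± 0.17 SE) and the repair polymerase Polb lower (-0.52 ± 0.16 SE).

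The cycle that supplies the methyl donor S-adenosylmethionine was also uneven. Mat2a, which makes S-adenosylmethionine, was higher in NPC WT than in ESC WT (log2 fold change 1.00 ± 0.11 SE, 236.8 to 472.5 CPM on average). In NPC Grb10 pA it was at 252 CPM on average, down by 0.91 ± 0.11 on the log2 scale (SE, adjusted p = 9.05e-07) from NPC WT, and in ESC Grb10 pA at 143 CPM, down by 0.71 ± 0.12 (SE, adjusted p = 9.87e-05) from ESC WT. Mtr, methionine synthase, was higher in NPC Grb10 pA (0.64 ± 0.10 SE). In NPC-WT relative to ESC-WT, 0 of 15 genes of the cycle tested were up-regulated and 5 down-regulated, where 42% of all genes were called. Among the 5 were Shmt1 (-1.29 ± 0.11 SE) and Shmt2 (-0.87 ± 0.15 SE), which feed the cycle with one-carbon units. In ESC-ΔZF1 relative to ESC-WT, 3.59% of all genes were called. There 1 of 17 cofactors, 0 of 8 readers and 1 of 19 demethylation partners were called. Of the cycle 2 of 15 genes tested were called, and of the replication genes 1 of 15. Among these called genes, Apobec2 was higher (1.13 ± 0.22 SE). Dppa3, which keeps Uhrf1 from chromatin (-1.64 ± 0.26 SE), Mat2b (-0.63 ± 0.13 SE) and the licensing factor Cdc6 (-0.53 ± 0.12 SE) were lower.

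The genes whose pattern was most like that of a member were found by Pearson's r of log2 CPM over the 18 parental and truncation libraries, with r over the 8 rescue libraries beside it. These libraries share the contrast of ESCs and NPCs, and r is given as a description. Dnmt3l was most like Pou3f1, Setd7 and Epcam (r of 0.988 for each), and r was 0.965, 0.901 and 0.869 in the rescue lines. Dnmt3b was most like Car2, Ptpn14 and Amot (0.993, 0.992 and 0.992, and 0.956, 0.878 and 0.929 in the rescue lines). Dnmt3a was most like Fndc3c1, Sox4 and Dusp4 (0.993, 0.991 and 0.99), but r was -0.248, -0.247 and -0.033 in the rescue lines. Tet2 was most like Atp2b1, Dlc1 and Neo1 (0.967, 0.962 and 0.959), with r of -0.119, 0.957 and -0.192 in the rescue lines. Tet1 was most like Ago2 and Wnk1 (0.967 and 0.965), with r of 0.881 and -0.829 in the rescue lines. Tet3 was most like Pfkm, Gldc and Peg3 (0.929, 0.927 and 0.925) and Dnmt1 most like Copz1, Skiv2l and 1700037H04Rik (0.964, 0.961 and 0.959). Uhrf1 (Afg3l2, Dppa5a and Usp5, 0.944, 0.94 and 0.939) and Tdg (Mtss1, Herpud2 and Zdhhc9, 0.864, 0.844 and 0.831) follow. Between members, r of Dnmt3b and Dnmt3l was 0.956 and 0.982 in the 18 and the 8 libraries, that of Tet1 and Tet2 0.816 and 0.994, and that of Dnmt3a and Dnmt3b 0.982 and -0.107.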

How the data were processed

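Total RNA depleted of ribosomal RNA was sequenced as paired ends from 26 libraries, and reads were aligned by the authors to mm10 with STAR, as the submitters' processing notes and the methods state. The authors counted reads per gene symbol with featureCounts without regard to strand and deposited the whole-number counts in 2 tables. The gene annotation used for counting is not given in the sources used here. In all, 3 columns of the second table matched no label and were not used. Of the 55291 symbols, 96.4% were found in GENCODE M21, which gave coordinates and exon lengths.

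Each table was fitted on its own in edgeR 4.0.16 (R 4.3.3) with TMM factors, filterByExpr (16641 and 13268 genes kept), 1 coefficient per group and the quasi-likelihood test with robust estimation of the spread, over all libraries of the table. Contrasts compared NPCs with ESCs of a line, altered with control lines, and the latter effects between cell types. Calls needed an adjusted p of 0.05 or less and a log2 fold change with a size of 0.5 or more. Groups came from the labels. Replicates are described as biological, but the labels do not say that they are separate cultures, so p-values measure the spread between these libraries. The precision of low counts is limited by the depth of 1907505 to 28730435 counts. CPM are counts scaled to the TMM-adjusted library size, and per kb means per kilobase of the union of exons.

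Of the partner lists, genes were named by rule, as the called ones whose mean normalized count was 50 or more that rose or fell most (up to 2 each way in NPC WT, NPC-WT and NPC-ΔZF1 against NPC-WT, 1 elsewhere). All 9 members were named, with the 3 genes of highest likeness for each. Some genes that the rule names are not reported here. Members and lists were chosen with earlier results of these data known. Alternatives were DESeq2 1.42.0, RLE scaling, other filters, a replicate block, a cutoff of 0.01, fits of only the libraries compared, scaling without chromosome 11 or 8, each library left out and, chosen after seeing the data, no robust estimation and Tdg summed with Tdg-ps2. Scaling without chromosome 11 was run for the ΔZF1 comparisons and scaling without chromosome 8 for the Grb10 pA comparisons. The scripts were tested on simulated data.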

Additional observations from a re-analysis of the deposited data

Results flagged for a closer look

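The Grb10 pA effect in NPCs and in ESCs was compared by the test of the difference itself (edgeR). It differed past both cutoffs for 2 of the 9 genes, where 5.82% of all genes passed. Dnmt3b passed the p-value cutoff only, and the share of all genes that did so is not given here. On the log2 scale the effect in NPCs less that in ESCs was 1.28 for Dnmt3l (adjusted p = 0.000175), 0.77 for Tet1 (adjusted p = 0.00682) and -0.48 for Dnmt3b (adjusted p = 0.00982), the last of which was under the fold cutoff. Dnmt3b passed it without ESC WT replicate 3 (-0.51) or ESC Grb10 pA replicate 1 (-0.52), and Tet1 missed the p-value cutoff without ESC Grb10 pA replicate 2. Groups of 2 or 3 libraries were too small for a test of single outlying libraries.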

How the results depend on the processing

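Of 1895 values of the 9 genes under an alternative, 1831 kept their side of the cutoffs, 36 lost a call, 28 gained one and 0 reversed. Among the 1831 are 47 uncalled values that changed sign. The number of the 9 genes called in NPC-ΔZF1 relative to NPC-WT (2) was 1 with DESeq2, at an adjusted p of at most 0.01 and with scaling without chromosome 11, 0 with only the libraries compared and 3, with Dnmt3b, with at least 10 counts in every library. In ESC-ΔZF1 relative to ESC-WT (0) it was 1 with DESeq2 and with no filter, for the difference of the ΔZF1 effects (0) 1 with no filter, and for that of the Podxl pA effects (0) 1 with DESeq2 and with only the libraries compared and 2 with no filter. In ESC Podxl pA (2) it was 1 at an adjusted p of at most 0.01 and with only the libraries compared. The cause was not tested.

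With a library left out, the number called was 0 to 0 in ESC-ΔZF1, ESC Grb10 pA and NPC Podxl pA and for the Podxl pA difference, 0 to 2 in ESC Podxl pA and for the ΔZF1 difference, 0 to 4 in NPC-ΔZF1, 1 to 2 in NPC Grb10 pA and 1 to 3 for the Grb10 pA difference. Between NPCs and ESCs it was 4 to 7 in Podxl pA and 5 to 6 in each other line. In fits that left 1 library in a group, that library was assumed to vary like the others.

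Same-numbered replicates showed little shared deviation (correlations from -0.09 to 0.132, the highest between NPC-ΔZF1 and ESC-ΔZF1). Whether the numbers pair the libraries cannot be decided from this, because sampling noise also lowers such correlations. A replicate block left 1 of the 9 genes called in NPC-ΔZF1 relative to NPC-WT (Dnmt3l had an adjusted p of 0.0532) and 370 of 598 among all genes in ESC-ΔZF1.

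Counts over all genes moved by over 1.5 times as follows. In ESC-ΔZF1, 598 became 1044 with no filter, 50 at 0.01, 1645 with only the libraries compared and 8 to 17 with a library left out. In NPC-ΔZF1, 2931 became 1438 at 0.01, 1109 with only the libraries compared, 5885 without NPC-WT replicate 1, and 907 and 927 without NPC-ΔZF1 replicate 1 or 2. The ΔZF1 difference (431) became 696 with DESeq2, 1065 with no filter, 73 at 0.01, 4702 and 1703 without NPC-WT replicate 1 or 2, and 51 to 86 without any other library. With at least 10 counts in every library, 4348, 4221 and 4582 in WT, Podxl pA and Grb10 pA NPCs relative to ESCs became 2684, 2528 and 2849. In NPC Podxl pA, 73 became 41 with that filter, 39 at 0.01, 149 with only the libraries compared and as few as 36 with a library left out. In ESC Podxl pA, 46 became 18 at 0.01 and as few as 17 with a library left out. At 0.01, 1196 in ESC Grb10 pA became 793 and the Grb10 pA difference went from 772 to 330. The Podxl pA difference (6) became 40 with DESeq2, 75 with no filter, 1 at 0.01, 64 with only the libraries compared, 13 without robust estimation and 0 to 27 with a library left out.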
